A study of Mus musculus with 130 samples.

Results

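Gene expression on day 14 of UNC0638 exposure was compared with that on day 4 in mouse embryonic stem cells, to ask what the later time adds to the earlier one. UNC0638 is a small-molecule inhibitor of G9a (gene Ehmt2) and GLP (gene Ehmt1). Each day was a single RNA-seq library. Levels are given as CPM, the count scaled to a library of fixed effective size. A gene was taken as measured when it reached 1 CPM on either day, which kept 13259 of the 52550 genes in the files. The 2 libraries compared are 2 of the 130 samples of the series, of which 10 are RNA libraries with 1 in each group.

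All cells of this comparison were wild-type TT2 embryonic stem cells of a C57BL/6xCBA background, grown on gelatin in serum with leukemia inhibitory factor. They carried no mutation of either enzyme. The titles give a dose of 250 nM, whereas the treatment protocol gives the same figure in micromolar. It is not stated if the inhibitor was present up to day 14 without a break, nor on which day the vehicle (DMSO) control was collected. The vehicle control and the day 2 library are shown for reference. Other TT2 libraries served for comparisons that share no library with these. They came from untreated wild-type cells (WT TT2), from a clone that is G9a-/- and carries a mutant G9a transgene (G9a CM), and from a clone given as G9a-/-;GLP-/- (G9a/GLP DKO). Each mutant is 1 clone, and no label says whether the inhibitor-series libraries came from separate cultures. RNA was extracted with RNeasy columns and libraries were made by Smart-seq2.

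G9a and GLP form a heteromeric methyltransferase that places mono- and dimethylation on lysine 9 of histone H3, a mark of silent euchromatic genes. In embryonic stem cells the mark helps to keep germline, imprinted, 2-cell-stage and endogenous-retrovirus-linked genes off. A small, changing minority of cultured embryonic stem cells switches on transcripts of the 2-cell embryo, among them the Zscan4 genes, and then returns to the usual state. Nodal and BMP signals act on the same cells through different SMAD proteins, and each pathway has well-known direct targets.

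Because each group held 1 library, no replicate spread exists and no test between days was possible. A gene was called higher or lower when log2(CPM + 1) differed by at least 1 and counting error alone left the ratio on the same side of 1. That error was taken as the exact 95% binomial interval (Clopper-Pearson) given the sum of both counts. The intervals cover counting error only, since reads amplified by PCR and lacking molecular identifiers can repeat a molecule, and every call describes these libraries rather than the days. A library with 0 counts was given a floor of 3 counts for folds, which is 0.178 CPM on day 4 and 0.194 CPM on day 14.

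The leading result concerns a family of gene copies that were higher together, so the promoters of 3 Zscan4 genes are shown here to let a reader see how alike they are. Each sequence covers 250 bases before to 50 bases after the RefSeq start in GRCm38.p6, written 5′ to 3′ on the gene's own strand. Capitals in Zscan4d and Zscan4f mark bases that differ from Zscan4c where the sequences align. Zscan4c lies on the plus strand (chr7:11005495-11005794), Zscan4d on the minus strand (chr7:11166099-11166398) and Zscan4f on the plus strand (chr7:11397665-11397964).
Zscan4c: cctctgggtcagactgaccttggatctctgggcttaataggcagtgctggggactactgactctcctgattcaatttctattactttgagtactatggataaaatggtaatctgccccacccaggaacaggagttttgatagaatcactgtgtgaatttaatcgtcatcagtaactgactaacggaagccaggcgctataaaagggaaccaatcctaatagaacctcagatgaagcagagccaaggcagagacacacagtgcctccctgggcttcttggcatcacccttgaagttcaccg
Zscan4d: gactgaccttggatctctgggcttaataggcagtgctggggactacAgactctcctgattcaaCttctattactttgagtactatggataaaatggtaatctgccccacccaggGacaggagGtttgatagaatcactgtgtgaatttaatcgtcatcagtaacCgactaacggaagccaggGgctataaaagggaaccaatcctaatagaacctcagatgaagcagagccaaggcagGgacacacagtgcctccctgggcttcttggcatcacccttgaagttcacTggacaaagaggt
Zscan4f: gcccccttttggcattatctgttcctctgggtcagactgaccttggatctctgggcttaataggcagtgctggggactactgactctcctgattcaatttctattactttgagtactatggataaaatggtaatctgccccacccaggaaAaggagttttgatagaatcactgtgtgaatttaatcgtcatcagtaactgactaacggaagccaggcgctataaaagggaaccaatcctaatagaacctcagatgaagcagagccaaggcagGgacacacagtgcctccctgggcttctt
Zscan4c and Zscan4d matched at 281 of 289 aligned positions (97.2%). Zscan4c and Zscan4f matched at 275 of 277 (99.3%), with no gap in either alignment.

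Most transcripts differed little between the days. Of 13259 measured genes, 213 were called higher on day 14 (1.61% of measured genes) and 39 lower (0.294%). The median log2 difference was 0.004, and 89.04% of genes differed by under 0.5. Of the 40 genes called higher with a log2 difference of at least 2, many belonged to the 2-cell list. A single gene, Pagr1a, was lower by as much. Among the 8117 genes that reached 10 CPM on either day, 70 were called higher and 17 lower. Genes just inside the minimum were Platr22 and Rnf212b, each with 1.0101 CPM on day 4, and genes just outside were Tmem53 and Uba1y, with 0.9686 CPM in the higher library.

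**Figure D1:**
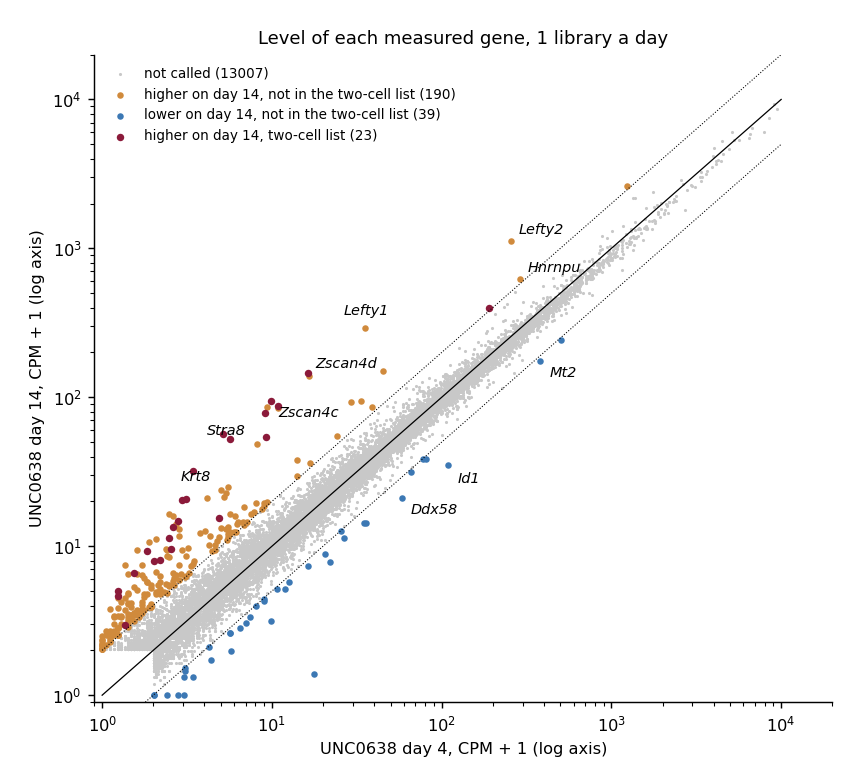
Level of each of the 13259 measured genes on day 4 (x axis) and day 14 (y axis), as CPM + 1 on log axes, with 1 point per gene. The solid line marks equal levels and the dotted lines a 2-fold difference; the 23 called genes of the 2-cell list, with Lefty1 and Lefty2, lie above the 2-fold line.

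The libraries were similar in make-up. Total expected counts in the 4 inhibitor-series libraries were 14760140 to 18212923. All 10 embryonic stem cell markers, such as Pou5f1 and Nanog, had at least 1 CPM in each of the 4, with sums of 7140 to 7620 CPM. The 10 fibroblast markers summed to 12.2 CPM in the vehicle control, 13.5 on day 2, 8.91 on day 4 and 11.9 on day 14. Of these markers, 6, including Col3a1, were at 0 counts on day 4 while none was on day 14. Col1a1 and Thy1 were lower on day 14 than on day 4, and the rest higher. Mitochondrially encoded transcripts held 1.76% of counts on day 4 and 2.12% on day 14. Ehmt2 stood at 77.2 CPM in the vehicle control, 60.0 on day 2, 78.9 on day 4 and 66.6 on day 14, and Ehmt1 at 50.9, 59.6, 46.4 and 45.5 CPM. Neither passed the size rule on day 14 against day 4, and transcript levels of the targets do not measure inhibition of the enzymes.

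Genes of the 2-cell stage were the group with the largest median difference. Of 25 measured members of the 2-cell list, 23 were called higher on day 14 and none lower, where 1.61% of all measured genes were called higher. Their median log2 difference was 2.34, against 0.004 over all measured genes. The 30 listed members summed to 300.5 CPM in the vehicle control, 285.3 on day 2, 439.4 on day 4 and 1283 on day 14. The 13 members outside the Zscan4, Usp17l, Tmem92 and Zfp352 entries held 297.7, 243.2, 376 and 680.5 CPM of these sums. At least 1 CPM was reached by 2 of the 30 in the vehicle control and 19 on day 4. Without the 1 CPM minimum, 26 of the 30 had an interval wholly above 1, and 1 had an interval wholly below it.

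Zscan4 genes encode SCAN-domain zinc-finger proteins linked to telomere maintenance in embryonic stem cells. Zscan4d had 0.294 CPM in the vehicle control, 7.53 on day 2, 15.3 on day 4 and 144.1 on day 14, a 9.44-fold difference between the last pair (interval 8.29 to 10.8). Zscan4c went through 0.588, 6.52, 8.85 and 93.6 CPM, 10.6-fold higher on day 14 than on day 4 (8.92 to 12.6). Zscan4f had 0.294, 3.82, 4.16 and 55.5 CPM, and was 13.3-fold higher (10.4 to 17.3). For all 3 genes the vehicle control was lowest and day 14 highest, and the step from day 4 to day 14 was the larger part of the day 14 level. Zscan4a, annotated as a transcribed pseudogene, stood at 0.22, 4.28, 8.08 and 77.6 CPM. The deposited standard deviation of the count was 0 for each of these 4 genes on both days. How reads that match several copies were treated before that step is not stated, so their split over single copies was not checked here. The Zscan4, Usp17l, Tmem92 and Zfp352 entries together summed to 2.79, 42.1, 63.4 and 602.4 CPM in the vehicle control and on days 2, 4 and 14, and all 16 measured among them were called higher.

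Usp17l genes, which encode deubiquitinating enzymes, lie in a repeated array on chromosome 7. Usp17lb had 0.147 CPM in the vehicle control, 3.41 on day 2, 8.26 on day 4 and 53.5 on day 14 (6.48-fold, 5.41 to 7.81). Usp17le was 9.98-fold higher on day 14 (6.95 to 14.8) and Usp17la 9.21-fold (6.51 to 13.4). Members elsewhere in the genome were higher too. Tcstv1 and Tcstv3, 2-cell transcripts of chromosome 13, were 10.5-fold (5.29 to 23.7) and 6.84-fold (4.08 to 12.2) higher, and both had 0 counts in the vehicle control. Arg2, which encodes the mitochondrial arginase, had 0.881, 2.70, 3.86 and 14.6 CPM (3.78-fold, 2.86 to 5.06). Calcoco2, which encodes the autophagy receptor NDP52, was already abundant in the vehicle control and had 123.3, 91.6, 189.6 and 398.4 CPM (2.10-fold, 2.01 to 2.19). The measured members not called were Sp110, with a log2 difference of 0.88, and Eif1ad, with -0.16. A bulk library cannot tell apart more cells with these transcripts and more transcript in each such cell.

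**Figure D2:**
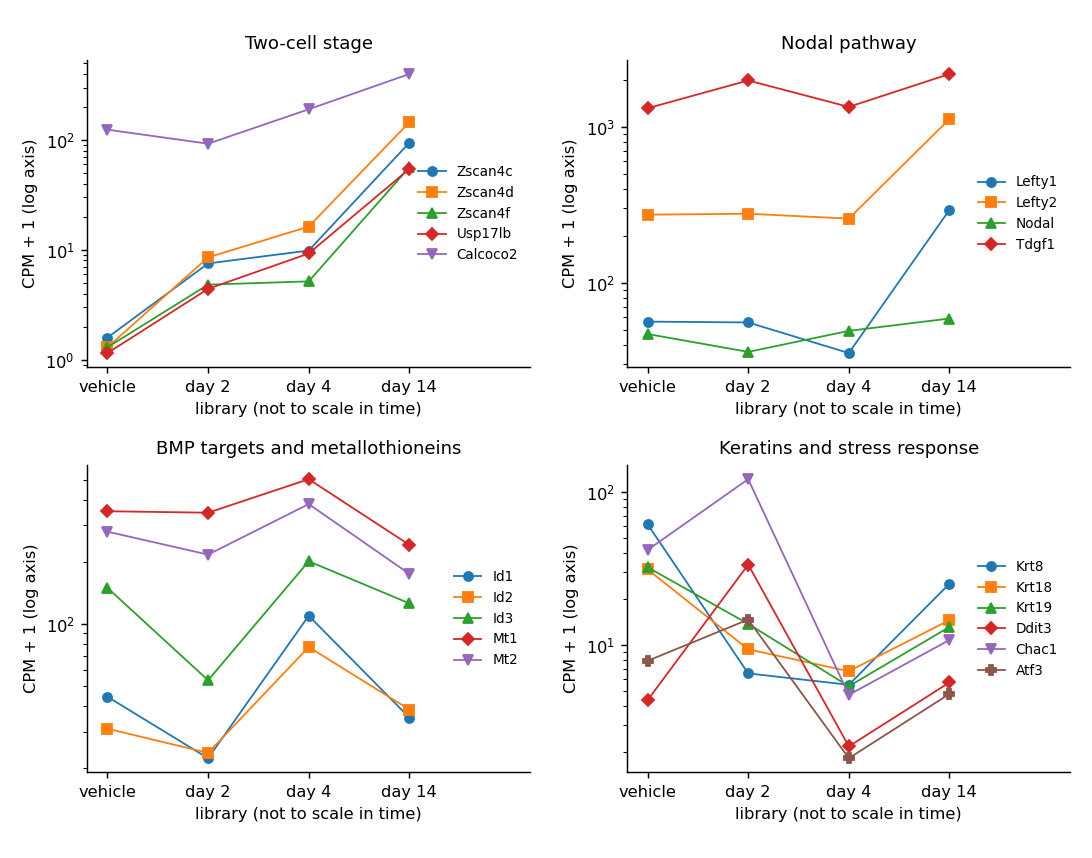
CPM + 1 (log axis, with its own range in each panel) of the named genes in the vehicle control, day 2, day 4 and day 14 libraries, 1 point per library, with lines joining the libraries of a gene. The panels show 2-cell genes with day 14 as the highest library, Lefty1 and Lefty2 with a step between days 4 and 14, Id and metallothionein genes with day 4 as the highest library, and keratin and stress genes with day 4 as the lowest.

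Of the 213 genes called higher, 70 (32.9%) had a provisional symbol, against 1070 (8.07%) of all measured genes. Of 183 genes called higher that have RefSeq coordinates, 43 lay on chromosome 7 or 12, the chromosomes of the Zscan4 and Gm8300 arrays, where 11.57% of measured genes lie. The chromosomes were picked after their counts were seen. Gm8300, an Eif1a-like gene of the 2-cell list on chromosome 12, had 0.441 CPM in the vehicle control, 5.80 on day 2, 9.80 on day 4 and 86.1 on day 14. Medians of whole chromosomes over genes with at least 10 CPM stayed between -0.08 (chromosome 8) and 0.03 (chromosome 12) on the log2 scale.

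The Nodal pathway was the other group with large differences at high level. Nodal is a TGF-beta family ligand that signals with its co-receptor Cripto (gene Tdgf1) through SMAD2 and SMAD3, and the Lefty proteins are its secreted feedback antagonists. Lefty1 (chromosome 1, 180935022 to 180938401) had 55.3 CPM in the vehicle control, 54.6 on day 2, 34.4 on day 4 and 291.6 on day 14. It was 8.48-fold higher on day 14 than on day 4 (interval 7.77 to 9.26). Lefty2 (chromosome 1, 180893108 to 180899107) had 271.7, 275.5, 256.3 and 1116 CPM, and was 4.35-fold higher (4.21 to 4.50). Unlike the Zscan4 genes, both were at similar levels in the vehicle control, on day 2 and, for Lefty2, on day 4, and stood apart on day 14.

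The ligand and the co-receptor did not pass the size rule: Nodal had 45.9, 35.02, 48.1 and 57.9 CPM (log2 difference 0.26) and Tdgf1 1310, 1974, 1336 and 2171 CPM (0.70). Skil and Smad7, feedback inhibitors of SMAD signalling, differed by 0.37 and 0.51. All of these Nodal pathway genes thus lay above 0, but only the Lefty genes among them were called.

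BMP targets moved the other way in part. The Id genes encode helix-loop-helix proteins that hold basic helix-loop-helix factors inactive and are direct targets of SMAD1 and SMAD5. Id1 (chromosome 2, 152736251 to 152737410) had 43.4 CPM in the vehicle control, 21.4 on day 2, 108.5 on day 4 and 34.2 on day 14, 3.17-fold lower on day 14 than on day 4 (interval 2.88 to 3.50). Id2 had 30.1, 22.8, 76.3 and 37.5 CPM, 2.03-fold lower (1.84 to 2.25). Day 4 was the highest library for both, and day 14 lay near the vehicle control. Id3, with 148.4, 52.4, 200 and 124.8 CPM, had a log2 difference of -0.68 and was not called. The ligand Bmp4 (-0.05), the inhibitor Bambi (-0.18) and Smad6 (0.26) were not called either. Id2 lost its call when library totals replaced the trimmed-mean scaling (-0.94) and with the deposited TPM (-0.91).

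Metallothioneins, small cysteine-rich proteins that bind zinc, copper and cadmium, were among the most abundant genes called lower. Mt1 had 350 CPM in the vehicle control, 344.4 on day 2, 500.7 on day 4 and 240.4 on day 14 (2.08-fold lower, 2.00 to 2.17). Mt2 had 278.6, 215.5, 379.2 and 173.7 CPM (2.18-fold lower, 2.09 to 2.28). For both, day 4 was the highest library and day 14 the lowest. They were the only 2 members called among 19 measured genes of oxidative stress and metal response, whose median difference was -0.11. Of all measured genes, 0.294% were called lower. Mt1 fell short of the size rule under library totals (-0.99) and with the deposited TPM (-0.97).

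The metallothionein promoters are shown because both genes are regulated by the metal-sensing factor MTF1 through metal response elements. Capitals mark matches on either strand to the core TGCACNC or TGCGCNC, where N is any base. The windows run from 250 bases before to 50 bases after the RefSeq start in GRCm38.p6, both on the plus strand, chr8:94178839-94179138 for Mt1 and chr8:94172368-94172667 for Mt2.
Mt1: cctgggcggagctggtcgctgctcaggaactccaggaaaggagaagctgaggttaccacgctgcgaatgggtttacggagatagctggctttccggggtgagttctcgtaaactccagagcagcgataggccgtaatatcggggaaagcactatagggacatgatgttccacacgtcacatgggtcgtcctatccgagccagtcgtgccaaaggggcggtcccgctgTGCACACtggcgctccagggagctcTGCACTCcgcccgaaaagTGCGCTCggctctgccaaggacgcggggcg
Mt2: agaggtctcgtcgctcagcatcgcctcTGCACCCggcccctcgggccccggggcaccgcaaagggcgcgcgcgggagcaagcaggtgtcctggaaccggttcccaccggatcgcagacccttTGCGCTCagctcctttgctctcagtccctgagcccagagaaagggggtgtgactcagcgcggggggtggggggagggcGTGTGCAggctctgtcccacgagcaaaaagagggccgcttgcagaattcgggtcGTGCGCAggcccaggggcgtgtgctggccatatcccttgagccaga
Mt1 held 3 matches and Mt2 held 4. Of 9997 RefSeq promoters of measured genes, 37.3% held at least 1 match and 3.54% held 3 or more. Over all 27025 RefSeq promoters of this length the shares were 25.6% and 2%. A match is a string of letters and no evidence of binding, and whether the elements bear on the difference was not tested.

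Other genes called lower had mixed roles. Ddx58, which encodes the viral RNA sensor RIG-I, had 56.1 CPM in the vehicle control, 36.5 on day 2, 57.0 on day 4 and 20.1 on day 14 (2.84-fold lower, 2.497 to 3.24). Calca, the gene of calcitonin and of the peptide CGRP, had 18.1, 24.9, 20.9 and 6.85 CPM (3.06-fold lower). In both genes day 14 was the lowest of the 4 libraries. Gpx2, a glutathione peroxidase, had 10.1, 22.8, 33.8 and 13.4 CPM, with day 4 the highest. Gli1, a transcription factor and target of Hedgehog signalling, had 20.0, 8.91, 15.4 and 6.39 CPM, and Nrp2, a receptor for semaphorins and VEGF, 60.2, 50.7, 64.8 and 30.4 CPM; both lost their call with the deposited TPM. Pagr1a had the largest difference, 16.7 CPM on day 4 and 0.387 on day 14, but the deposited standard deviation of its count was 61.1% and 87% of the count, so its value is uncertain. Of all 39 lower genes, day 4 was the highest of the 4 libraries in 28 and day 14 the lowest in 21. Over all measured genes day 4 was highest in 21.4% and day 14 lowest in 18.7%. The call itself sets day 4 above day 14, so these counts only place the vehicle control and day 2.

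Interferon-linked genes did not move together. Of 31 measured members of that list, 3 were called higher and 1, Ddx58, lower, with a median of 0.04. The shares over all measured genes were 1.61% higher and 0.294% lower. Gbp2, an interferon-induced GTPase, had 5.21 CPM in the vehicle control, 0.56 on day 2, 0.772 on day 4 and 5.10 on day 14. Psmb8, a subunit of the immunoproteasome, had 4.85, 0.865, 1.07 and 5.75 CPM. In both genes the low libraries were days 2 and 4, and day 14 was close to the vehicle control. Oasl2 was 3.53-fold higher on day 14 than on day 4 (2.41 to 5.29).

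Simple epithelial keratins showed a similar shape. Krt8 and Krt18 encode the partners of the first intermediate filaments of the embryo, prominent in trophectoderm. Krt8 had 60.4 CPM in the vehicle control, 5.55 on day 2, 4.52 on day 4 and 24.2 on day 14 (5.35-fold higher on day 14 than on day 4, 4.17 to 6.94). Krt18 had 30.2, 8.398, 5.76 and 13.6 CPM (2.35-fold, 1.84 to 3.03) and Krt19 had 31.2, 12.8, 4.40 and 12.1 CPM (2.76-fold, 2.10 to 3.66). All 3 were highest in the vehicle control and lowest on day 4, and day 14 lay between. Of 16 measured trophoblast genes, 6 were called higher, against 1.61% of all measured genes, and none lower, with a median of 0.56. The others called were Anxa3, Esx1 and Hand1. The factors Gata3 (log2 difference 0.03), Tead4 (0.08) and Tfap2c (0.61) were not called, and Cdx2, which defines the trophectoderm lineage, had 0 counts on day 4 and 2 on day 14. The 5 trophoblast markers summed to 6.95 CPM on day 4 and 10.3 CPM on day 14, and their part in the result was not tested.

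Mesoderm and endoderm genes showed 5 of 14 measured members called higher, against 1.61% of all measured genes. Of these 5, 2 were the Lefty genes already described. Wnt3, a ligand of the primitive streak, had 1.47 CPM in the vehicle control, 0.407 on day 2, 0.119 on day 4 and 1.61 on day 14. Hand1 had 1.98, 1.07, 0.594 and 2.71 CPM. Both were at a low level throughout, and day 14 lay near the vehicle control; Wnt3 was not called with the deposited TPM. The 4 mesoderm markers, including T and Mixl1, summed to 4.52 CPM on day 4 and 6.33 CPM on day 14. Of 20 measured primitive endoderm genes, only Dab2 was called (2.47-fold, 1.88 to 3.28), and the 7 markers of that lineage summed to 14.4 and 25.1 CPM. The part of these cell types in the results was not tested.

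Muscle-type actins were higher on day 14 at low levels. Acta2, smooth muscle actin, had 1.91 CPM in the vehicle control, 0.611 on day 2, 0.594 on day 4 and 8.46 on day 14 (14.2-fold, 7.5 to 30.4). Actc1 and Acta1, the cardiac and skeletal forms, had 0.119 and 0.357 CPM on day 4 and 2.78 and 2.71 CPM on day 14. Anxa2 and Cald1, an annexin and an actin-binding protein, were 2.39-fold and 2.21-fold higher. These 5 were the members called among 23 measured cytoskeletal genes, whose median was 0.11. Of all measured genes, 1.61% were called higher. Acta2 is also expressed by fibroblasts. The fibroblast marker sum given above was higher on day 14 than on day 4, but under that of the vehicle control and of day 2. A longer list of 22 fibroblast genes summed to 155.4 CPM on day 4 and 141.4 on day 14. Of its 11 measured members, 2 were called higher and none lower. In all, 7 lay above 0 and 4 below, with a median of 0.38. The part of fibroblasts in the result was not tested.

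Stress-response regulators had their peak on day 2 and their low on day 4. ATF4 is the transcription factor of the integrated stress response, and the genes in this list are its targets. Ddit3, the pro-apoptotic factor CHOP, had 3.38 CPM in the vehicle control, 32.5 on day 2, 1.19 on day 4 and 4.71 on day 14. Chac1, a glutathione-degrading enzyme, had 40.8, 119.8, 3.74 and 9.82 CPM. Atf3 had 6.90, 13.7, 0.832 and 3.81 CPM. Each was called higher on day 14 than on day 4 (Ddit3 3.97-fold, Chac1 2.62-fold, Atf3 4.58-fold), yet day 14 stayed far under day 2. Ddit4, an inhibitor of mTORC1, had 15.6, 77.6, 8.02 and 18.7 CPM. These were 4 of 17 measured regulators, against 1.61% of all measured genes called higher. No enzyme or transporter of amino acid supply was called among 22, and no tRNA synthetase among 12, and the whole list of 51 measured genes had a median of -0.03.

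Hypoxia-inducible genes overlapped with that shape. Bhlhe40, a repressor of the circadian and hypoxia responses, had 7.20 CPM in the vehicle control, 45.6 on day 2, 4.22 on day 4 and 20.3 on day 14 (4.81-fold, 3.70 to 6.31). Adm, the gene of the vasodilator adrenomedullin, had 1.32, 4.78, 0.951 and 4.26 CPM. Slc2a3, the high-affinity glucose transporter GLUT3, was the most abundant called gene, with 1555, 2702, 1241 and 2605 CPM (2.10-fold, 2.06 to 2.13). In these genes day 4 was the lowest library, and day 2 the highest. Of 35 measured genes of hypoxia and glycolysis, 4 were called higher, against 1.61% of all measured genes, and none lower. The list median was 0.28. Slc2a3 had a difference of 0.97 with trimmed-mean scaling over all genes, short of the rule.

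Among germline and related genes, Stra8, the retinoic-acid-induced gatekeeper of meiosis, stood apart. It had 8.30 CPM in the vehicle control, 25.5 on day 2, 7.19 on day 4 and 47.7 on day 14 (6.63-fold, 5.46 to 8.10). It was the only member called of 43 measured germline genes, whose median was -0.03. That count is near the 1.61% called higher over all measured genes. Dazl, an RNA-binding protein of germ cells, had 6.76, 13.5, 13.1 and 23.0 CPM (log2 difference 0.76). All 11 measured genes of the retinoid list lay above 0 with a median of 0.68, and Stra8 and Cdx1 were called.

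The X-linked Xlr family, which encodes nuclear proteins related to a synaptonemal complex component, was higher in every measured member. Of 9 measured, 3 were called, against 1.61% of all measured genes called higher, and all 9 lay above 0, with a median of 0.95. Xlr3c had 0.441 CPM in the vehicle control, 1.99 on day 2, 5.82 on day 4 and 17.3 on day 14 (2.97-fold, 2.35 to 3.79). Xlr5b had 0, 0.305, 1.13 and 3.94 CPM. The family sum was 20.1, 45.9, 77.5 and 139.8 CPM, so each library lay above the one before it. The deposited standard deviation of the count was 0 for all 9 on both days. The Mage family, also largely X-linked, had no call among 10 measured genes (median 0.23), and the Rhox cluster none among 7 (-0.14).

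Imprinted genes had 3 calls among 42 measured genes, all maternally expressed noncoding RNAs, with a list median of 0.08. All 3 were called higher, where 1.61% of all measured genes were. Meg3, from the Dlk1-Dio3 region, had 8.45 CPM in the vehicle control, 3.05 on day 2, 4.52 on day 4 and 12.5 on day 14 (2.77-fold, 2.12 to 3.67). Rian, from the same region, had 1.76, 1.17, 1.31 and 3.94 CPM, and H19 had 5.66, 3.46, 4.46 and 9.94 CPM. Day 14 was the highest of the 4 libraries for all 3. Rian and H19 lost their call with the deposited TPM (0.64 and 0.66), and H19 with 3 other scalings too, down to 0.92. No source used here says whether reads were counted by strand, so an overlapping or antisense partner cannot be told apart.

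Groups tied to pluripotency and to repressive chromatin are given next. Over all measured genes 1.61% were called higher and 0.294% lower, so few calls are usual in lists of this size. None of 28 naive pluripotency genes passed the size rule, and their median was -0.09. The largest differences were Tbx3 (0.90), Nr0b1 (-0.87) and Tdgf1 (0.70). Of 13 measured formative and primed genes only Fgf5 was called, on 3 counts on day 4 and 24 on day 14. It had 1.32 CPM in the vehicle control, 0.153 on day 2, 0.178 on day 4 and 1.55 on day 14. Fgf5 lost its call with the deposited TPM (0.78). None of 31 genes of the H3K9 methylation machinery was called, with Suv39h1 (0.80) and Suv39h2 (0.61) the farthest above 0. None of 17 DNA methylation genes was called, but Dnmt3l, the cofactor of de novo methylation, came close, with 161.7, 164.2, 225.9 and 113.7 CPM and a difference of -0.98. It passed under median-of-ratios size factors (-1.04) and with trimmed-mean scaling over all genes (-1.08).

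Broad housekeeping groups shifted by small amounts without a call. Cytosolic ribosomal protein genes had a median of -0.20, and 82 of 89 lay below 0. Nuclear genes of oxidative phosphorylation had a median of -0.14, with 69 of 80 below 0. The 7 measured mitochondrially encoded transcripts all lay above 0, with a median of 0.29. The medians of the 3 groups kept their signs under every scaling tried, from -0.30 to -0.12 for the ribosomal proteins. Differences of this size are close to the spread between scalings, which moved the ratio of the days by up to 0.10 on the log2 scale.

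**Figure D3:**
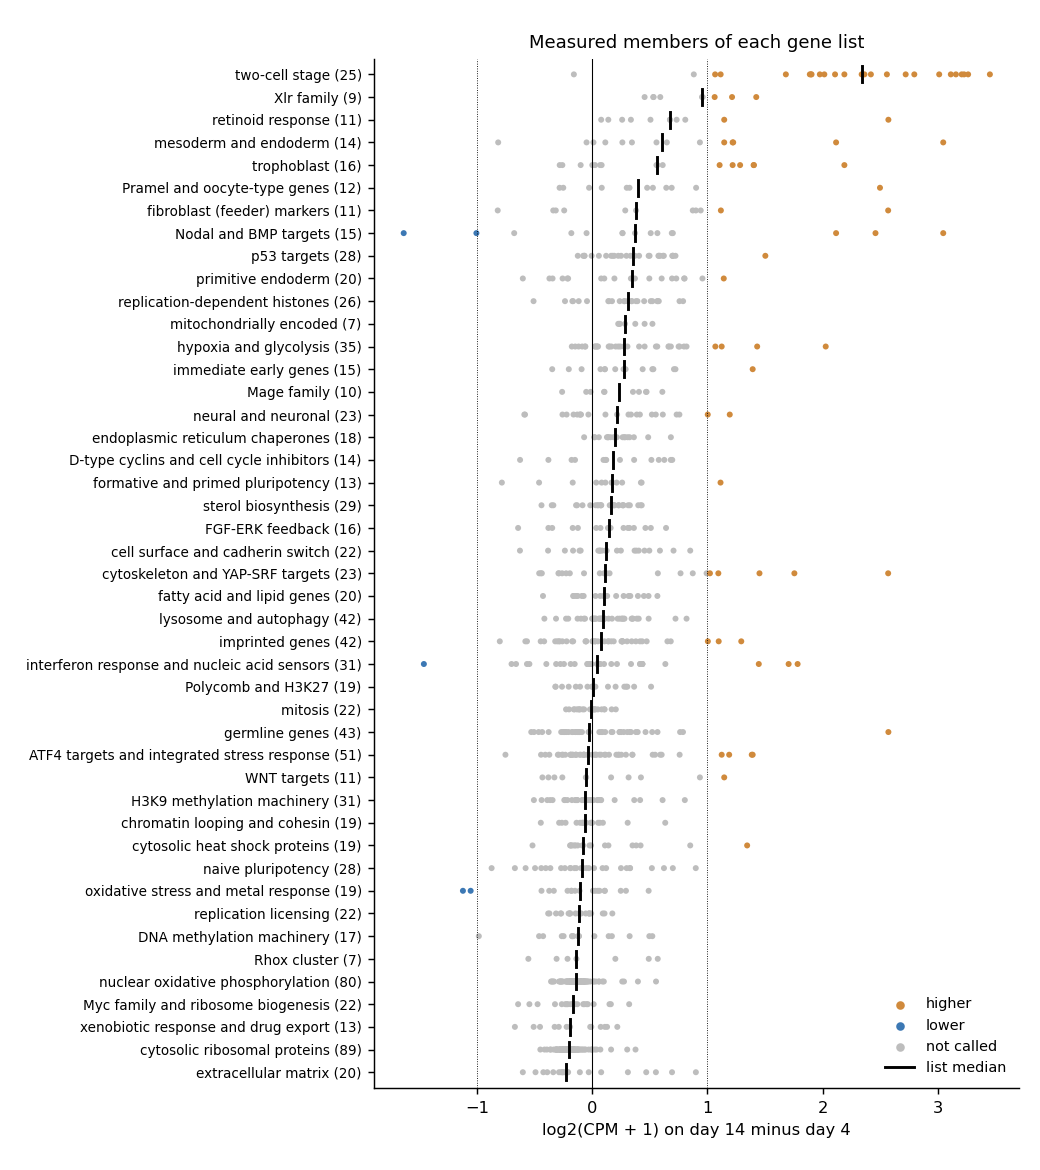
Log2(CPM + 1) difference, day 14 minus day 4, of each measured member (1 point per gene) of the gene lists with at least 7 measured members, with the number measured in brackets, called genes in colour and a black bar at the list median. The 2-cell list has the highest median, 2.34, and the Xlr family the next, 0.95, while most lists centre near 0.

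A few abundant called genes fell in no list and were chosen here after their values were seen. Aqp3, a water and glycerol channel, had 26.3 CPM in the vehicle control, 32.2 on day 2, 44.1 on day 4 and 150.1 on day 14 (3.41-fold, 3.13 to 3.70). Car2, a carbonic anhydrase, had 60.7, 22.8, 28.3 and 91.9 CPM (3.25-fold). Hnrnpu, a nuclear RNA-binding scaffold protein, had 277.9, 159.5, 288.8 and 619.7 CPM (2.15-fold, 2.07 to 2.22). In each of them day 14 was the highest library. Exosc6, a subunit of the RNA exosome, was called, but its deposited standard deviation was 49% of the count on day 4.

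Across the 213 genes called higher, the vehicle control lay below both days in 115, between them in 85 and above both in 13. It was under 1 CPM in 120 of them. Day 14 was the highest of the 4 libraries in 182, and day 4 was the lowest in 73. Over all measured genes these shares were 22.6% and 22.3%. The keratin and stress genes named above also had day 4 as the lowest, but differed in their highest library. The day 4 to day 14 direction is set by the call itself, so these counts only place the other 2 libraries.

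The genes called on day 14 were then looked up in comparisons that share no library with days 4 and 14. Ehmt1 had 38.3 CPM in WT TT2 and 7.95 in the DKO library, whereas Ehmt2 had 14.6 and 17.9 CPM and was thus no lower there, so that library is named by its label only. Of the 213 genes higher on day 14, 165 were measured there, and the library labelled G9a/GLP DKO had 101 of them called higher and 14 lower. These 101 are 47.4% of the 213, where 9.77% of measured genes were called higher in that library. They are also 7.37% of the 1370 genes higher there, beside the 1.61% of measured genes called higher on day 14. The median difference of the 165 was 1.25 on the log2 scale, against 0.04 over all genes. Without the 2-cell list, 81 of 145 were higher, with a median of 1.11. A gene under 1 CPM in WT TT2 counted as measured only if the DKO library reached 1 CPM. Such genes could enter only with a higher DKO level, so these medians and the 81 of 145 depend on that filter.

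Zscan4c had 0.59 CPM in WT TT2, 3.77 with the G9a CM transgene and 29.8 in the library labelled DKO. Xlr3c had 0.787, 13.7 and 84.0 CPM in the same order. Aqp3 had 1.93, 1.83 and 23.9 CPM, high only in the last of the 3. Lefty1, at 7.98, 10.3 and 29.4 CPM, and Meg3, at 0.669, 45.5 and 34.6 CPM, were higher there as well. Some went the opposite way. Chac1 had 58.2 CPM in WT TT2 and 5.82 in that library, and Ddit3 had 38.3 and 4.80 CPM.

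**Figure D4:**
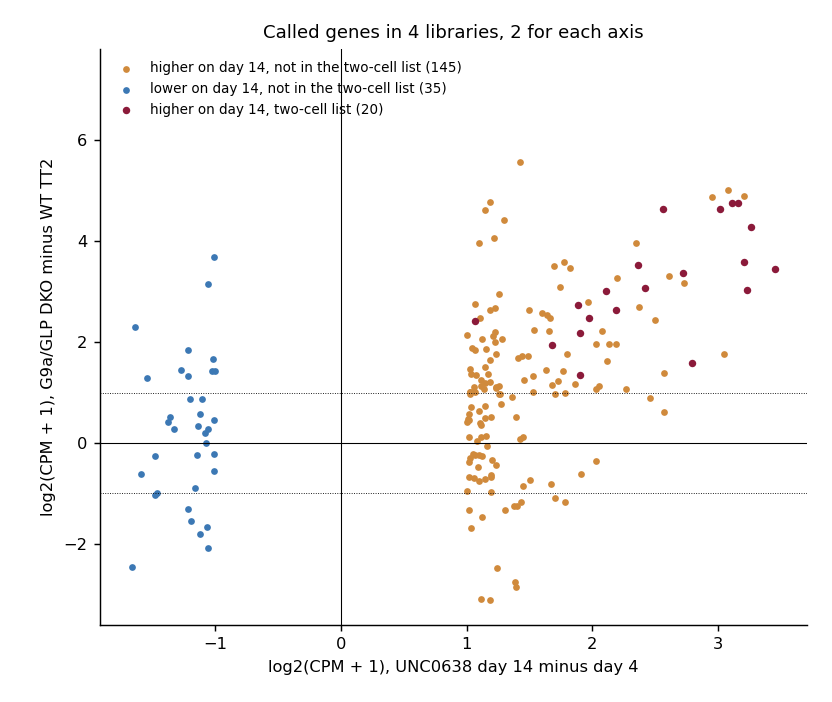
Log2(CPM + 1) difference of the called genes on day 14 against day 4 (x axis) and between the library labelled DKO and WT TT2 (y axis), for genes measured in each comparison, 1 point per gene and 4 libraries in all. Dotted lines mark a log2 difference of 1 on the y axis, and 101 of the genes higher on day 14 were also called higher there. All 20 measured 2-cell genes lie above 0. A gene under 1 CPM in WT TT2 is shown only if the DKO library reached 1 CPM, which sets its side of 0.

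In the G9a CM library against WT TT2, 35 of the 213 were called higher (16.4%) and 12 lower, where 5.4% of measured genes were called higher. These 35 are 4.8% of the 729 genes higher there, beside the 1.61% of measured genes called higher on day 14. On day 2 against the vehicle control, 42 of the 213 were called higher (19.7%) and 12 lower, where 3.12% of measured genes were called higher. These 42 are 10.1% of the 415 genes higher there, again beside 1.61%. The medians of the measured genes were 0.31 and 0.43, and they depend on the same kind of filter. The 39 lower genes were fewer and differed between comparisons. In the library labelled G9a/GLP DKO 7 were called lower and 10 higher, where 7.09% of measured genes were called lower and 9.77% higher. In G9a CM 5 were lower and 14 higher (background 5.07% lower and 5.4% higher). On day 2 against the vehicle control 5 were lower (12.8% of the 39) and 4 higher (background 1.84% lower and 3.12% higher). Their medians were 0.28 in the DKO library, with 14 of 35 measured below 0, and 0.68 in G9a CM, with 11 of 37 below 0. On day 2 the median was -0.38, with 21 of 34 below 0. Id1 had 20.7 CPM in WT TT2, 72.5 with the G9a CM transgene and 105.8 in the library labelled DKO, the opposite of its day 14 difference. Mt1 had 1167, 679.5 and 274.7 CPM, the same direction as on day 14. The lines and the inhibitor-series cells also differed in base level, since Lefty2 had 16.2 CPM in WT TT2 and 271.7 in the vehicle control.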

How the data were processed

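Per the labels' protocols, total RNA from cells on gelatin was made into libraries by Smart-seq2. STAR 2.5.3a and RSEM, with the build GRCm38 (mm10), are named in the submitters' processing notes. For the annotation release and strand setting, nothing is given in the sources used here. RSEM expected counts were what the authors deposited; they divide a read among the genes it matches and were rounded to whole numbers. The deposited TPM values are scaled for effective gene length, per the file headers, and served as an alternative only, as did the deposited posterior mean count.

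CPM used TMM factors from edgeR 4.0.16 over the 10 RNA libraries and the 15906 genes with at least 1 CPM in any of them. The pseudocount was 1 CPM. DESeq2 1.42.0 gave the alternative size factors. The calling script was tested on simulated data. Gene symbols matched 99.72% of IDs, and the 147 without a symbol held at most 0.0199% of counts in an inhibitor-series library. RefSeq coordinates were found for 96.5% of measured genes, and 131 of 252 called genes had a RefSeq promoter entry, with chromosome 18 left out.

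Named genes were Ehmt1 and Ehmt2, the 15 largest called protein-coding genes each way that reach 10 CPM and have a standard symbol, the 3 largest noncoding each way, and up to 4 members of each list with at least 3 measured. Fewer may be printed, and small lists may be given whole. The members, the 47 gene lists and the rules were chosen with earlier results of these data known. In all, 24 lists had no member called. The other 120 samples were not analysed here. A result that needs a withheld item is not reported here.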

Additional observations from a re-analysis of the deposited data

How the results depend on the processing

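No paired analysis was possible because each group held 1 library. With a pseudocount of 0.5, 333 genes were higher and 70 lower, and 9, 15 and 12 of the lower genes were also lower on day 2, in the library labelled DKO and in G9a CM. With a minimum of 5 CPM, 109 were higher and 25 lower, 14, 50 and 10 of the higher genes were also higher in the same 3 comparisons, and 3 of the lower genes on day 2; fewer genes were tested. The count lower on day 2 was 2 with library totals, deposited TPM or posterior mean counts. That in G9a CM was 8 with median-of-ratios factors and 9 with trimmed-mean factors over all genes, an alternative chosen after seeing the data, under which the library labelled DKO had 12. The cause was not tested for the changes of scaling or value. With the deposited TPM, 156 of the 213 and 23 of the 39 genes were still called. Of 68 named genes called, 53 kept their call under all 10 alternatives and none changed sign. With 0 counts, levels up to 0.194 CPM on day 14 and 0.178 CPM on day 4 cannot be seen.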
